A study of Mus musculus with 9 samples.

Results

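Keratins of the colon and of squamous epithelium were read in a table of gene counts from mouse colon. The 10 genes were chosen by symbol, with earlier results of these data known. They were *Krt7*, *Krt8*, *Krt18*, *Krt19*, *Krt20* and *Krt23* of simple epithelium, and *Krt5*, *Krt13*, *Krt14* and *Krt15* of squamous epithelium. All 10 had a row among the 27719 genes of the table, in which 53 rows carry a keratin symbol. Total RNA from the colon of C57BL/6J mice was copied into cDNA, amplified by PCR and read on an Oxford Nanopore PromethION, from 9 mice, 3 per group. The control group drank distilled water. The DSS and DSS + EA groups drank 2.5% dextran sodium sulfate (DSS), an agent that injures the colon epithelium, for 7 days. In the third group, DSS + EA, electroacupuncture (EA) was added after 5 days of DSS at the ST36 points of the left and right leg. It was given daily on 5 days, each session lasting 30 minutes with a current of 0.2 mA at 2 Hz. Mice of the other groups were held in a frame without EA. Per the paper, the animals were killed once the 5 treatment days were over, which is after the 7 days of DSS. The age of the mice and the part of the colon taken are not given in the sources used here.

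Keratins are the intermediate filament proteins of epithelial cells. They assemble as pairs of a type I and a type II chain, so a cell that makes filaments makes at least 1 of each type. In simple epithelium such as the colon lining, the type II keratin is mainly *Krt8*, its type I partners are *Krt18* and *Krt19*, and *Krt20* is added as cells mature towards the surface. *Krt7* is a type II keratin best known from ducts and other simple epithelia, and *Krt23* is a type I keratin of low abundance. *Krt5* with *Krt14* or *Krt15* marks the basal layer of squamous epithelium, and *Krt13* marks the upper layers of its non-cornified forms. Annotation of the GRCm38 build places *Krt7*, *Krt8*, *Krt5* and, as the only type I gene of the 10 there, *Krt18* on chromosome 15, with the other type I genes on chromosome 11. *Krt18* (chromosome 15, 102028180 to 102032027, plus strand, 7 exons) lies near *Krt8* (chromosome 15, 101996698 to 102004482, minus strand, 9 exons). *Krt20* (99428403 to 99438150, 8 exons) and *Krt23* (99477974 to 99493137, 8 exons) lie near each other on the minus strand of chromosome 11. *Krt7* overlaps the antisense gene *Gm671*, *Krt8* the long non-coding gene *Gm36026* and *Krt5* the miRNA gene *Gm44323*. Use of strand in the counting is not stated, so reads of these genes cannot be told apart from those of their overlapping partners.

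The libraries held from 2627695 to 4235576 counts each. Levels are in CPM, the counts of a gene scaled to a common library size, and 3 counts, the floor used, came to 0.708 to 1.14 CPM. The CPM below use library totals adjusted by the TMM method. Differences between groups are log2 fold changes from an edgeR quasi-likelihood fit over the 9 libraries, with Benjamini-Hochberg adjusted p-values over the 12566 genes tested. A difference is called at an adjusted p under 0.05. Each sample is described as 1 mouse only by its label, so the p-values measure the spread between these samples, part of which may be technical. The 3 DSS mice differed widely. The summed CPM of 15 leukocyte genes was 3093, 23030 and 28164 in DSS mice 1, 2 and 3, against 450 to 580 in the control group. That of 15 pan-epithelial genes, which most epithelial cells share, was 1585, 1189 and 603 against 2360 to 2882. DSS mouse 1 therefore lay nearest to the control group on both scales. For DSS against control, the fold changes of the keratins and the ratios of *Krt8* are given with and without this mouse. In the DSS + EA group, mouse 1 had 830 CPM of the epithelial adhesion gene *Epcam* against 147 and 181 CPM in the others. In DSS + EA mice 1, 2 and 3, 20 pancreatic acinar genes summed to 717, 48880 and 21574 CPM. In the other 6 mice the sum was 45.2 to 958 CPM, but 8 to 16 of the 20 genes had no count in each. Every one of the 20 had counts in each DSS + EA mouse.

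Sequences upstream of *Krt18*, *Krt20* and *Krt23* are shown because these are the 3 genes whose differences passed the test. RefSeq promoters (GRCm38.p6) were matched by symbol for 8 of the 10 genes, all but *Krt15* and *Krt19*. The 250 bases before the start were searched on both strands for 6 motifs, with N for any base. For the TATA box the letters were TATAAA. For the GC box of Sp1 factors they were GGGCGG. The AP-1 motif was searched as TGANTCA. Searches for CDX, an intestinal factor, used TTTATG. The STAT motif was taken as TTCNNNGAA, and the NF-kappaB motif is given by name. Each stretch below is written 5′ to 3′ on the strand of the gene and stops before the earliest annotated base of the gene, and capitals mark matches.
Krt18 (chr15:102027966-102028179, plus strand): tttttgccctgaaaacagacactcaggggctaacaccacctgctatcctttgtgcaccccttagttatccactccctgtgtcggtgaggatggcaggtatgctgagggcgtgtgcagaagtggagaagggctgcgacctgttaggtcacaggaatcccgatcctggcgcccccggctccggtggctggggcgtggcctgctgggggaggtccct
Krt20 (chr11:99438154-99438403, minus strand): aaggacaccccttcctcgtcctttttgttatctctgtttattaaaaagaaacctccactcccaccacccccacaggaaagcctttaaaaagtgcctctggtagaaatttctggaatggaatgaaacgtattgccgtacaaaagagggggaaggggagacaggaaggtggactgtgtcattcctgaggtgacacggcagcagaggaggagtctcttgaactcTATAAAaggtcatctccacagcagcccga
Krt23 (chr11:99493138-99493370, minus strand): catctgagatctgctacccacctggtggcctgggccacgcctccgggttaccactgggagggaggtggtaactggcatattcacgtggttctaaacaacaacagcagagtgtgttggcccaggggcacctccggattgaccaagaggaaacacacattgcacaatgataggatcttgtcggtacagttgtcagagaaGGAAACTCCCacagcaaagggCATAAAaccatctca
The *Krt20* stretch held the TATAAA letters 29 bases before the start, letters found in 12.4% of all 32851 promoters. That of *Krt23*, 233 bases long, ends before the RefSeq start, from which distances are counted. It held a match of the NF-kappaB motif on the opposite strand 53 bases before that start, found in 1.41% of promoters. It also held the TTTATG letters on the opposite strand 32 bases before that start, found in 10.8%. Of the 8 genes searched, 2 held the NF-kappaB motif, *Krt23* and *Krt14*. The TTTATG letters were held by 2, *Krt23* and *Krt13*. No letters of the 6 motifs were found in the *Krt18* stretch. A match describes the letters only, and binding was not measured.

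In the colon of control mice, the keratins of simple epithelium were abundant and those of squamous epithelium were close to absent. The 10 genes together made up 0.433% ± 0.0459 (SD, n = 3) of the counts of a control library. The reads are of full-length cDNA, so levels were ordered by CPM without scaling to transcript length. In the control group *Krt8* stood at 1448 ± 121 CPM, *Krt19* at 1323 ± 93.3 and *Krt20* at 881 ± 172 (SD, n = 3). *Krt18* followed at 556 ± 73.6 CPM, *Krt7* at 118 ± 33.4 and *Krt23* at 6.84 ± 2.21 (SD, n = 3). The ranges of *Krt8* and *Krt19* overlapped, and no other neighbours in this order did. In the DSS group *Krt8*, *Krt19*, *Krt20* and *Krt18* followed each other with overlapping ranges. *Krt7* at 69.6 ± 32.7 CPM was above *Krt23* at 30.1 ± 17.3 in each DSS mouse, though their ranges overlapped. In the DSS + EA group *Krt19* stood at 1223 ± 176 CPM, *Krt20* at 1015 ± 164 and *Krt8* at 993 ± 71.9, with overlapping ranges.

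Does DSS colitis change the keratins of the colon? Compared with the control group, *Krt18* and *Krt20* fell and *Krt23* rose in the DSS group, while *Krt8*, *Krt19* and *Krt7* did not pass the test. Of the 6 keratins that were tested, 1 was higher and 2 were lower, against 21.5% and 19.5% of all genes tested that were higher and lower. The groups did not overlap for 5 of the 6, against 52% of all genes, and none met the study's rule for a DEG (a log2 fold change beyond 2.5 and an unadjusted P under 0.01), which 10.2% of all genes met. At an unadjusted p under 0.05, 5 of the 6 differed by edgeR, against 49.8% of all genes. DESeq2 called the same numbers, 1 higher and 2 lower, against 15.9% and 13.4% of the 19066 genes it tested. The median log2 fold change of the 6 was −1.09, beside 0.02 over all genes tested. The other 4 keratins, all of squamous epithelium, had too few counts to be tested. In these bulk samples, fewer epithelial cells and less keratin RNA per cell cannot be told apart.

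**Figure D1:**
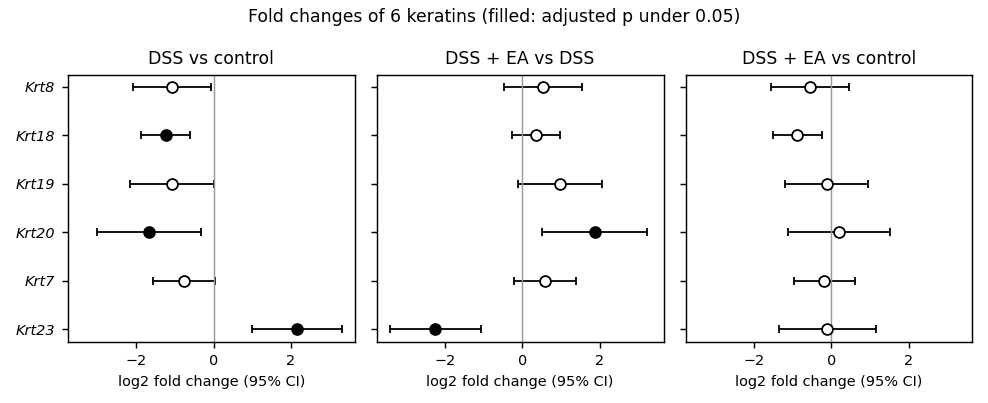
Log2 fold changes of 6 keratins (x axis) with 95% confidence intervals in 3 comparisons, from the edgeR fit over 9 libraries. Filled points passed an adjusted p under 0.05: *Krt18*, *Krt20* and *Krt23* in DSS against control, *Krt20* and *Krt23* in DSS + EA against DSS, and none in DSS + EA against control.

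*Krt8*, the main type II chain of the colon, stood at 1499, 1310 and 1535 CPM in control mice 1, 2 and 3 and at 1213, 612 and 227 CPM in DSS mice 1, 2 and 3. Every DSS mouse lay below every control mouse, but mouse 1 by little and mouse 3 by far. With this spread the log2 fold change of −1.08 ± 0.46 (SE) had an adjusted p of 0.0829 by edgeR. In the DSS + EA group *Krt8* stood at 1060, 917 and 1001 CPM, a narrow range that lay below every control mouse and inside the range of the DSS mice.

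*Krt18*, the classical type I partner of *Krt8*, gave the call that was most stable among the keratins that fell. It stood at 482, 629 and 556 CPM in the control mice and at 340, 223 and 143 CPM in the DSS mice, which did not overlap. The log2 fold change was −1.24 ± 0.28 (SE), a 2.36-fold fall, with an edgeR adjusted p of 0.00692. Under 13 of 14 alternative settings this call held, the exception being scaling to epithelial genes (below). DSS + EA mice had 308, 275 and 323 CPM of *Krt18*, all below the lowest control mouse.

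*Krt19*, a type I keratin that also pairs with *Krt8*, stood at 1254, 1285 and 1429 CPM in the control mice and at 1180, 482 and 202 CPM in the DSS mice. DSS mouse 1 was again close to the control group, and the groups did not overlap. Its log2 fold change of −1.09 ± 0.49 (SE) had an edgeR adjusted p of 0.0999. In the DSS + EA mice it stood at 1044, 1229 and 1396 CPM, a range that overlapped that of the control group.

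*Krt20*, the keratin of mature surface cells, had the largest fall among the 6 in the DSS group. The control mice had 783, 780.5 and 1080 CPM and the DSS mice 530, 251 and 52.3 CPM, so that DSS mouse 3 kept the least. The log2 fold change was −1.66 ± 0.60 (SE), a 3.17-fold fall, with an edgeR adjusted p of 0.0499. That call lay at the threshold: over 14 alternatives the adjusted p ranged from 0.00443 to 0.25, and 9 of them lost it. DESeq2 kept it at an adjusted p of 0.0165.

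*Krt7* was lower in abundance, with 108, 91.0 and 156 CPM in the control mice and 99.6, 74.6 and 34.7 CPM in the DSS mice. DSS mouse 1 lay inside the control range. Its log2 fold change was −0.76 ± 0.36 (SE), with an edgeR adjusted p of 0.117. DSS + EA mice had 89.7, 133 and 91.9 CPM of *Krt7*.

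*Krt23* was the keratin that went the other way. It stood at 4.29, 8.25 and 7.98 CPM in the control mice and at 49.2, 25.7 and 15.5 CPM in the DSS mice, from 17 to 25 counts per control library and from 50 to 154 counts per DSS library. No DSS mouse overlapped the control group, and the highest was DSS mouse 1, the mouse with the smallest changes in the other 5 genes. The log2 fold change was 2.15 ± 0.52 (SE), a 4.43-fold rise, with an edgeR adjusted p of 0.00933. Without DSS mouse 1 it was smaller, at 1.59 (edgeR adjusted p = 0.0216). All 14 alternatives kept this call, with adjusted p-values between 1.41e-05 and 0.0439. In the DSS + EA mice it stood at 2.72, 10.4 and 5.98 CPM, a range that overlapped that of the control mice.

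**Figure D2:**
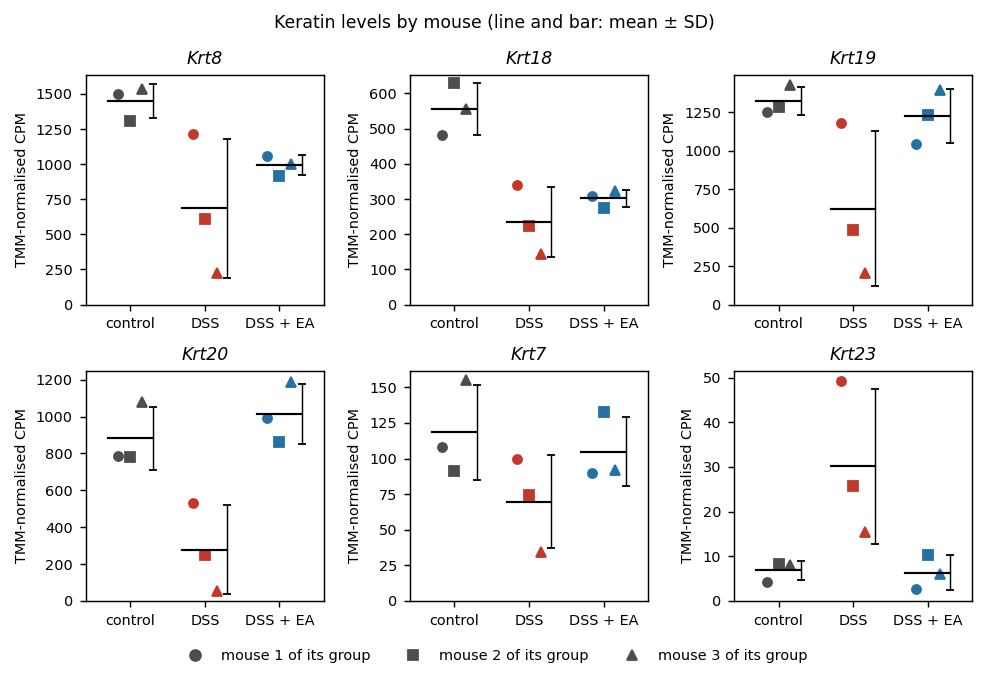
TMM-normalised CPM (y axes, each from 0) of 6 keratins in each mouse, by group; lines and bars are means ± SD, and symbols are the mice numbered within their own group. The DSS mice spread from 227 to 1213 CPM for *Krt8*, with mouse 1 highest and mouse 3 lowest in all 6 panels, and *Krt23* is the gene whose DSS mice all lie above the control mice.

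The order of the DSS mice was the same for all 6 keratins, mouse 1 above mouse 2 above mouse 3. Their summed share of the library was 0.335% (Wilson 95% confidence interval 0.329 to 0.342) in DSS mouse 1, 0.183% (0.179 to 0.187) in mouse 2 and 0.0677% (0.0649 to 0.0706) in mouse 3. PCR reads are not independent molecules, so these intervals, like the floors, cover counting error only. Without DSS mouse 1, all 5 of *Krt7*, *Krt8*, *Krt18*, *Krt19* and *Krt20* were lower than in the control group. Their log2 fold changes were then −1.13, −1.81, −1.63, −1.98 and −2.56. Without DSS mouse 3 they were smaller, at −0.44, −0.66, −0.98, −0.67 and −1.17 in the same order, and *Krt18* and *Krt20* were the 2 called. When control mouse 1, 2 or 3 or DSS mouse 2 was left out, *Krt18* alone was called lower, and *Krt20* was not called.

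Keratin reads were then set beside reads of other genes that epithelial cells share. Of the 15 pan-epithelial genes, 9 fell and 0 rose in the DSS group, with a median log2 fold change of −1.25. Among them the claudin gene *Cldn7* had a log2 fold change of −1.28 (edgeR adjusted p = 0.00681) and *Epcam* one of −1.05 (edgeR adjusted p = 0.249). Surface colonocyte genes fell further. For 10 of these 15 a fall passed the test, with a median of −1.90, and *Car1*, a carbonic anhydrase of mature colonocytes, was at −3.05. *Krt20* at −1.66 lay between both medians, and *Krt8*, *Krt18* and *Krt19* lay near the pan-epithelial one.

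Scaled to the pan-epithelial genes in place of the library, the means of *Krt8*, *Krt18* and *Krt19* differed little between the DSS and control groups. The log2 ratio of *Krt8* counts to the summed pan-epithelial counts was −0.86 ± 0.05 (SD, n = 3) in the control group and −0.92 ± 0.51 in the DSS group (exact permutation test, two-sided, p = 0.7, and 0.8 adjusted over 6 ratio tests). With 3 against 3 mice this test cannot go below 0.1. DSS mouse 1 was at −0.39, mouse 2 at −0.96 and mouse 3 at −1.41, so that the spread among DSS mice exceeded the difference. Without DSS mouse 1 the difference from the control group was −0.33, and without DSS mouse 3 it was 0.19. The ratio of *Krt18* was −2.24 ± 0.29 and −2.24 ± 0.17 (SD, n = 3), with ranges that overlapped. That of *Krt19* was −0.99 ± 0.10 in the control group and −1.10 ± 0.60 in the DSS group. DSS mouse 1, at −0.43, lay above every control mouse, and DSS mice 2 and 3, at −1.30 and −1.58, lay below every one. *Krt7* was higher on this scale in every DSS mouse than in any control mouse, at −4.04 ± 0.07 against −4.50 ± 0.26, and *Krt20* was at −2.45 ± 0.99 against −1.59 ± 0.17, with overlapping ranges.

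An edgeR fit with this scaling called 1 of the 6 keratins, *Krt23*, at a log2 fold change of 3.31 (edgeR adjusted p = 1.41e-05). *Krt8*, *Krt18*, *Krt19* and *Krt20* were then at 0.00, −0.01, −0.03 and −0.66. The scaling moves the median of all genes to 1.43, with 7200 genes higher and 424 lower in place of 2698 and 2447, so its values are relative to epithelial RNA and not to the tissue. Relative to that median, all but *Krt23* of the 6 keratins stood lower.

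**Figure D3:**
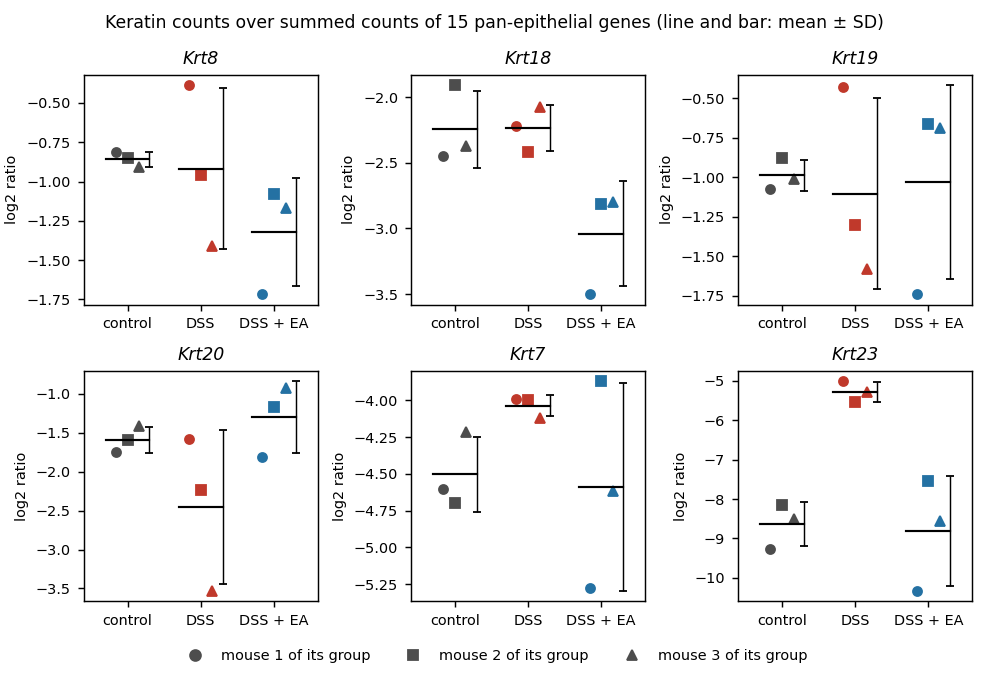
Log2 ratio of the counts of each keratin to the summed counts of 15 pan-epithelial genes (y axes, which differ between panels) in each mouse; lines and bars are means ± SD. *Krt23* stands near −5.28 in the DSS group and near −8.64 in the control group, while the DSS and control mice overlap for *Krt8*, *Krt18*, *Krt19* and *Krt20*.

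The balance among the keratins also moved. *Krt20* made up 20.2% ± 2.13 of the keratin counts in control mice, 12.8% ± 4.37 with DSS and 27.7% ± 2.30 with DSS + EA (SD, n = 3), and none of these groups overlapped. *Krt23* made up 0.157% ± 0.0494, 1.75% ± 0.464 and 0.176% ± 0.115. For *Krt18* the shares were 12.9% ± 2.11, 14.8% ± 5.75 and 8.30% ± 0.443, and every DSS + EA mouse lay below every other mouse. In DSS mouse 3, the mouse with the fewest keratin counts, *Krt18* reached the largest share of any mouse, 21.2%, and *Krt20* the smallest, 7.73%.

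**Figure D4:**
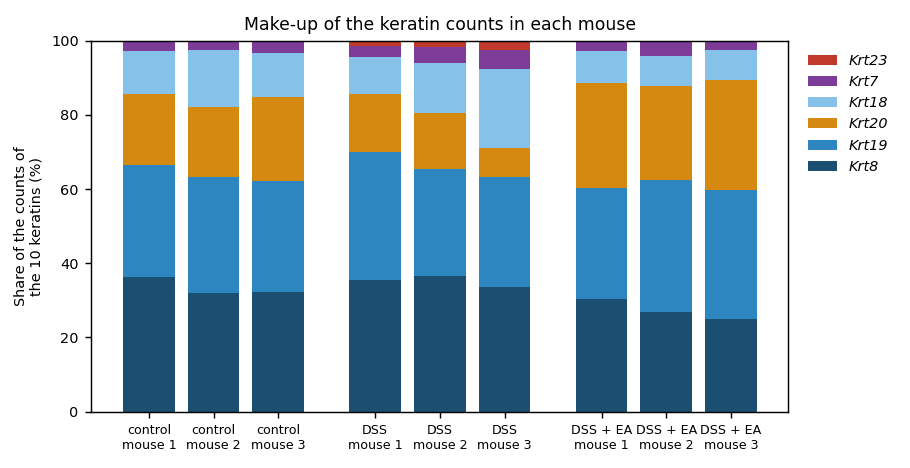
Share of the counts of the 10 keratins (y axis, %) held by each of 6 of them in each mouse, stacked; the other 4 are too small to be seen. *Krt20* holds 25.2% to 29.7% in the DSS + EA mice, 19.0% to 22.7% in the control mice and 7.73% to 15.5% in the DSS mice.

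The ratio of *Krt8* to its partner *Krt18* asks whether type II and type I chains moved apart. The log2 ratio of *Krt8* to *Krt18* counts was 1.64, 1.06 and 1.46 in the control mice, 1.83, 1.46 and 0.66 in the DSS mice and 1.78, 1.74 and 1.63 in the DSS + EA mice. The difference in mean log2 ratio was −0.07 for DSS against control, 0.40 for DSS + EA against DSS and 0.33 for DSS + EA against control (exact permutation tests, two-sided, p = 0.8, 0.4 and 0.2, and 0.8, 0.6 and 0.6 adjusted over 6 ratio tests). Groups overlapped in each comparison. Without DSS mouse 1 the difference of DSS against control was −0.33, and without DSS mouse 3 it was 0.26.

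Is the keratin pattern different when EA is added? Compared with the DSS group, *Krt20* rose and *Krt23* fell in the DSS + EA group, and *Krt8*, *Krt18*, *Krt19* and *Krt7* did not pass the test. Of the 6 tested, 1 was higher and 1 was lower, against 17.2% and 18.3% of all genes tested. The groups did not overlap for 2 of the 6, against 47.4% of all genes, and 0 met the rule for a DEG, against 6.41%. Of the 6, 2 had an unadjusted p under 0.05 by edgeR, against 46.9% of all genes. By DESeq2 1 was also higher and 1 lower, against 12.1% and 13.1% of the 18210 genes it tested.

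*Krt20* stood at 991, 864 and 1190 CPM in the DSS + EA mice, each above every DSS mouse. The log2 fold change against the DSS group was 1.87 ± 0.61 (SE), a 3.65-fold difference, with an edgeR adjusted p of 0.0376. This call was lost under 6 of 14 alternatives, whose adjusted p-values ranged from 0.00381 to 0.106 over all 14. *Krt23* had a log2 fold change of −2.26 ± 0.53 (SE) with an edgeR adjusted p of 0.00993, and all 14 alternatives kept it. The log2 fold changes of the other 4 were 0.98 for *Krt19* (adjusted p = 0.141), 0.59 for *Krt7* (0.223), 0.54 for *Krt8* (0.374) and 0.36 for *Krt18* (0.336), all by edgeR. Without DSS mouse 1, *Krt8*, *Krt18* and *Krt19* were also higher, at 1.27, 0.75 and 1.87, which gives 4 keratins higher. In that fit 3050 of 13341 genes tested were higher, against 2162 of 12566 with all mice. *Krt20* was then at 2.77 and *Krt7* at 0.96 (edgeR adjusted p = 0.0517). With 1 mouse left out in turn, *Krt23* stayed between −2.75 and −1.69. Without DSS mouse 3, *Krt8*, *Krt18*, *Krt19* and *Krt7* were at 0.09, 0.07, 0.53 and 0.23, and *Krt20* alone was higher, at 1.35 (edgeR adjusted p = 0.0161). Without DSS mouse 2 or any DSS + EA mouse, no keratin was called higher.

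Both of these comparisons share the DSS mice, so a high or low value there acts on each. Surface colonocyte genes rose for 10 of 15 and pan-epithelial genes for 8 of 15 in the DSS + EA group against the DSS group, with medians of 1.99 and 1.29. Leukocyte genes fell for 9 of 13 tested, with 1 higher. Their part in the keratin differences was not tested.

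Did the DSS + EA group differ from the control group? By edgeR none of the 6 keratins was called, higher or lower, against 3% of all genes tested that were higher and 0.637% that were lower. DESeq2 also called 0, against 3.81% higher and 0.947% lower of the 14782 genes it tested. An unadjusted p under 0.05 by edgeR was found for 1 of the 6, *Krt18*, against 17% of all genes. None met the rule for a DEG, which 2.08% of all genes met. *Krt18* and *Krt8* were the 2 keratins whose groups did not overlap, against 32.2% of all genes.

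*Krt18* was 302 ± 24.4 CPM in the DSS + EA group against 556 ± 73.6 CPM in the control group (SD, n = 3). The log2 fold change of −0.88 ± 0.28 (SE), with a 95% confidence interval from −1.51 to −0.25, had an unadjusted p of 0.0108 and an adjusted p of 0.138 by edgeR. *Krt8* had a log2 fold change of −0.54 with an interval from −1.55 to 0.46. A fit of these 2 groups alone called *Krt18* (edgeR adjusted p = 0.0069) and *Krt8* (edgeR adjusted p = 0.0285) lower. It called 359 of 11338 genes tested lower, against 80 of 12566 in the main fit. The main fit shares its estimate of spread over the 3 groups, the DSS mice among them. The cause of the difference between the fits was not tested. Over the 14 alternatives the adjusted p of *Krt18* ranged from 0.0069 to 0.772.

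*Krt20*, *Krt19*, *Krt7* and *Krt23* lay near the control level, with log2 fold changes of 0.20, −0.11, −0.18 and −0.11. Their intervals still allowed differences of up to 1.52 for *Krt20*, −1.19 for *Krt19*, −0.97 for *Krt7* and −1.36 for *Krt23*. The ratio of *Krt20* to *Krt8* counts was 0.935, 0.942 and 1.19 in the DSS + EA mice, 0.523, 0.596 and 0.704 in the control mice and 0.437, 0.411 and 0.231 in the DSS mice, so the 3 groups did not overlap. The log2 ratio of *Krt19* to *Krt18* was 1.76, 2.16 and 2.11 in the DSS + EA mice, above the 1.38, 1.03 and 1.36 of the control mice. In the DSS mice it was 1.79, 1.12 and 0.49, and DSS mouse 1 lay inside the DSS + EA range. Against the pan-epithelial genes, *Krt18* was lower in every DSS + EA mouse than in any other mouse, with log2 ratios of −3.50, −2.82 and −2.80, and, in a sum without *Epcam* that was added after the data were seen, also with −3.11, −2.68 and −2.71. The edgeR fit with pan-epithelial scaling did not call it, at a log2 fold change of −0.78 both against the control group (edgeR adjusted p = 0.772) and against the DSS group (edgeR adjusted p = 0.155). For *Krt8* this difference from the control group was −0.47 (exact permutation test, two-sided, p = 0.1, the smallest possible, and 0.6 adjusted over 6 ratio tests).

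The DSS + EA libraries also held pancreatic RNA. Of 16 pancreatic acinar genes tested, all 16 were higher than in the DSS group and 14 were higher than in the control group. Duct cells of the pancreas are known to make *Krt7*, *Krt8*, *Krt18* and *Krt19*. Within the DSS + EA group, *Krt7* was highest in mouse 2, at 133 CPM, the mouse with the most pancreatic RNA. It stood at 89.7 CPM in mouse 1, with 717 CPM of the pancreatic genes, and at 91.9 CPM in mouse 3, with 21574 CPM. *Krt18* was lowest of this group in mouse 2, at 275 CPM. Control mouse 3, with a sum of 371 CPM over the pancreatic genes, had 156 CPM of *Krt7*. In that mouse 10 of the 20 listed pancreatic genes had no count, and *Cela2a*, *Prss2* and *Try4* had 1 count each. DSS + EA mouse 1 had 256, 241 and 179 counts of these 3. The part of pancreatic RNA in these levels was not tested.

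The keratins of squamous epithelium were at or near the detection limit in all groups. *Krt5*, the basal type II chain, had 0 counts in 8 mice and 1 count in DSS mouse 3. *Krt15* had 1 count in DSS mice 1 and 3 and in DSS + EA mouse 1, and 0 in the others. Over the 3 control libraries, 0 counts of either allow a level of up to 0.313 CPM (3 counts).

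*Krt14*, the basal type I chain, gave 4, 4 and 1 counts in control mice, 0, 0 and 1 in the DSS mice and 2, 3 and 3 in the DSS + EA mice. Summed over each group, this was 0.938 CPM of the raw totals in the control group (95% Poisson interval 0.429 to 1.78) and 0.0938 CPM in the DSS group (0.00238 to 0.523). A fit without the filter on low counts gave an edgeR adjusted p of 0.0639 for DSS against control and of 0.0784 for DSS + EA against DSS. *Krt13* gave 0, 1 and 0 counts in control mice, 0, 10 and 4 in the DSS mice and 2 in each DSS + EA mouse. The same fit gave an edgeR adjusted p of 0.0835 for DSS against control, and DSS mouse 1 had no count. No difference of a squamous keratin was therefore called at this depth.

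**Figure D5:**
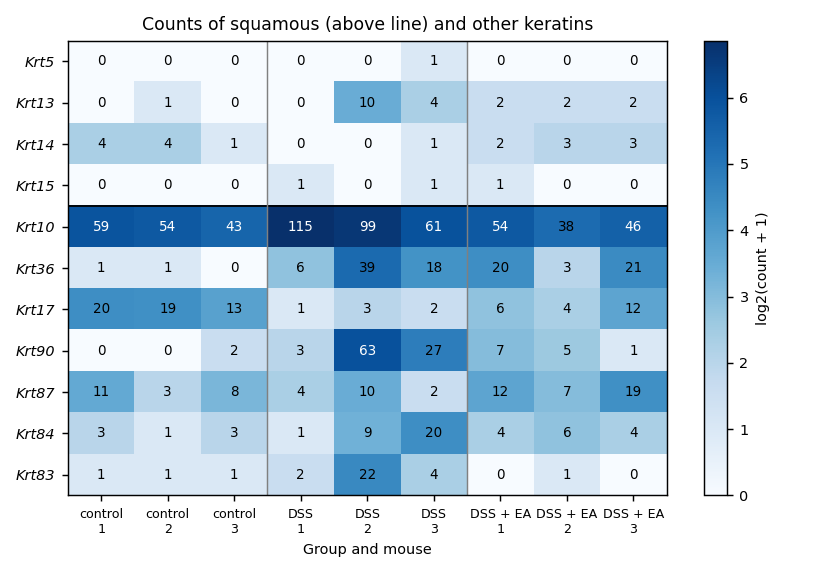
Raw counts in each mouse (columns, by group) of the 4 squamous keratins above the line and of 7 other keratins below it, with shading by log2(count + 1). *Krt5* and *Krt15* never exceed 1 count, while *Krt36* and *Krt90* rise from at most 2 counts in a control mouse to as many as 39 and 63 in DSS mouse 2.

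Other genes known from squamous epithelium were also scarce in part. Of 24 such genes in the table, 4 had no count in any mouse and 7 had between 1 and 10 in all. *Trp63*, the regulator of basal squamous cells, named after its counts were seen, had 0 counts in 8 mice and 3 in DSS mouse 3. Of the 10 that could be tested, 3 rose and 3 fell with DSS, and their median log2 fold change was −0.42. The most abundant were *Sfn*, a 14-3-3 protein also made by other epithelia, at −1.24 (edgeR adjusted p = 0.0160) and *Perp*, a desmosome protein, at −1.76 (edgeR adjusted p = 0.0442). The largest change of the list was the fall of *Tgm3*, at −3.68, named after its values were seen. *Tgm3* gave 550, 284 and 37 counts in control mice and 34, 29 and 7 in DSS mice. The 3 that rose, named after their values were seen, were *Sbsn* at 2.09 (edgeR adjusted p = 0.000728), *Csta1* at 1.82 (edgeR adjusted p = 0.0182) and *Dmkn* at 1.80 (edgeR adjusted p = 0.0415), all known from epidermis. *Sbsn* gave 15, 14 and 6 counts in control mice and 41, 67 and 61 in DSS mice. With EA added, 2 of the 10 tested genes of the list stood higher and 1 lower than with DSS alone, and 0 of 10 were called against the control group. The summed CPM of the list, to which *Sfn* and *Perp* gave the most, was 721 to 785 in the control mice, 258 to 430 in the DSS mice and 479 to 905 in the DSS + EA mice.

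Among the 43 keratins outside the 10, 7 had at least 30 counts and 3 could be tested. *Krt10*, a keratin of upper epidermal layers, gave 59, 54 and 43 counts in control mice and 115, 99 and 61 in the DSS mice, with a log2 fold change of 0.65 (edgeR adjusted p = 0.0787). In the DSS + EA mice it gave 54, 38 and 46 counts and was lower than in the DSS mice, at −0.77 (edgeR adjusted p = 0.0484). *Krt17*, a stress keratin of skin, fell from 20, 19 and 13 counts in the control mice to 1, 3 and 2 in the DSS mice, and the DSS + EA mice had 6, 4 and 12. The log2 fold changes of *Krt17* were −3.23 for DSS against control (edgeR adjusted p = 0.000785) and 2.06 for DSS + EA against DSS (edgeR adjusted p = 0.0145). *Krt36*, known as a hair and nail keratin, gave 1, 1 and 0 counts in control mice, 6, 39 and 18 in the DSS mice and 20, 3 and 21 in the DSS + EA mice. It was called higher than in the control group in both other groups (edgeR adjusted p = 0.00566 and 0.0491), and DSS + EA against DSS was not called (edgeR adjusted p = 0.808).

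Keratin filaments are anchored at desmosomes and hemidesmosomes and tied to other filaments by plakins. A list of such genes also held *Krtcap2* and *Krtcap3*, whose names come from keratinocytes and which are not part of these structures. Of its 15 genes tested, 3 fell and 0 rose with DSS, and the median log2 fold change was −0.32. The 3 were *Krtcap3* at −1.52 (edgeR adjusted p = 0.00119) and, named after their values were seen, the keratin-binding plakin *Eppk1* at −2.98 (edgeR adjusted p = 0.00137) and the plakoglobin gene *Jup* at −1.17 (edgeR adjusted p = 0.0212). *Plec*, the plectin gene, was at −0.22 (edgeR adjusted p = 0.434). From DSS to DSS + EA, 3 rose and 0 fell, and against the control group 0 of 15 were called.

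Intermediate filament genes other than keratins, among them the nuclear lamins of nearly all cells, were called in both directions. With DSS, 4 of 10 tested rose and 3 fell. The vimentin gene *Vim*, of mesenchymal cells and leukocytes, had a log2 fold change of 1.62 (edgeR adjusted p = 0.00629), and the desmin gene *Des*, of muscle, one of −1.61 (edgeR adjusted p = 0.0012). From DSS to DSS + EA, 1 rose and 4 fell, and 0 of 10 were called against the control group.

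Cells other than the lining can also make simple keratins. Mesothelium, the outer covering of the bowel, makes *Krt7*, *Krt8*, *Krt18* and *Krt19*. The summed CPM of 8 mesothelial genes was 6.81 to 22.4 in the control mice, 14.4 to 31.3 in the DSS mice and 19.0 to 20.1 in the DSS + EA mice. In DSS mice 1, 2 and 3 the sums were 20.1, 14.4 and 31.3 CPM, beside 99.6, 74.6 and 34.7 CPM of *Krt7*. *Wt1*, a defining mesothelial gene named after its counts were seen, had between 0 and 2 counts in every mouse. *Msln* alone of 3 tested was higher in the DSS group, at 3.95 (edgeR adjusted p = 0.000209). Of the genes of cells that do not make keratins, 11 of 13 leukocyte genes were higher in the DSS group and 1 was lower, and 7 of 14 fibroblast and smooth muscle genes were higher and 5 lower. Against the control group, 2 leukocyte genes and 3 fibroblast and smooth muscle genes were higher in the DSS + EA group, and 0 of either were lower. The part of these cells in the keratin differences was not tested.

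Genes whose profile over the 9 mice was nearest to a keratin were found by the root mean square difference of centred log2 CPM, over 7249 genes with a symbol and a mean of at least 10 CPM. The nearest to *Krt8* were *Galnt12*, *Bcl2l14* and *Ttc22*, at 0.18, 0.22 and 0.22, where the median gene was at 0.88. The nearest to *Krt20* were *Cideb*, *Myo5b* and *Anks4b*, at 0.24, 0.25 and 0.25, where the median gene was at 1.37. *Nudt22*, *Trp53inp2* and *Pank3* were nearest to *Krt7*, at 0.15, 0.19 and 0.21. These values describe 9 mice in 3 groups that share their group differences.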

How the data were processed

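Gene counts of 9 mouse colon libraries, 3 per group, were used. The authors deposited 1 table of raw counts per gene, with no normalisation, made from full-length cDNA reads. Per the labels the genome build is mm10, and the aligner, counter, annotation and use of strand are not given in the sources used here. Of 27733 lines, 14 without counts were left out, and 27719 genes were kept. Totals ran from 2627695 to 4235576 counts. Column names were matched to sample titles.

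Counts were fitted with edgeR 4.0.16 (R 4.3.3) by its quasi-likelihood test, with TMM factors, a filter on low counts by group, a prior count of 0.125, and group as the only term over all 9 libraries. P-values were adjusted by Benjamini-Hochberg over 12566 genes, and the step was tested on simulated data. Standard errors are the log2 fold change over the square root of F. DESeq2 1.42.0, other scalings, filters, samples and a replicate block were alternatives. Ratios were compared with exact two-sided permutation tests (scipy 1.17.1). Intervals are at 95%. Positions come from GENCODE M21 and promoters from RefSeq, both on GRCm38.

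The members and lists were chosen with earlier results of these data known. Named were all 10 members, up to 4 of the most abundant tested genes of a list, other keratins with at least 30 counts in all, and the 3 genes nearest in profile to *Krt8*, *Krt20* and *Krt7*. *Krt14*, also listed for this, did not pass the filter. The lists were pan-epithelial, surface colonocyte, squamous, desmosome and cytolinker, other intermediate filament, mesothelial, pancreatic acinar, leukocyte, and fibroblast and smooth muscle genes, and the other keratins.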

Additional observations from a re-analysis of the deposited data

How the results depend on the processing

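Between 1 and 5 keratins were lower in DSS against control when 1 mouse was left out in turn. The 5 were found without DSS mouse 1, a fit in which 3134 of 13341 genes were lower. The count of 2 became 1 with library totals, with a mean of at least 20 counts and in the fit of only the groups compared, and 0 with pan-epithelial scaling and under the study's rule for a DEG. That rule also left 0 in place of 1 keratin higher in DSS against control, higher in DSS + EA against DSS and lower in DSS + EA against DSS. The keratins higher in DSS + EA against DSS numbered 0 to 4 with 1 mouse left out. They numbered 4 without DSS mouse 1, where 3050 of 13341 genes were higher. They numbered 0 with pan-epithelial scaling and in the fit of only the groups compared. That last fit called 2 keratins lower in DSS + EA against control, where 359 of 11338 genes were lower. Pan-epithelial scaling moved the median of all genes to 1.43, −1.33 and 0.10 and reversed the sign of *Krt7* (0.45) and *Krt8* (0.000212) in DSS against control, of *Krt7* (−0.44), *Krt8* (−0.44) and *Krt18* (−0.78) in DSS + EA against DSS, and of *Krt7* (0.010), *Krt19* (0.0340) and *Krt23* (0.11) in DSS + EA against control. With 1 mouse left out, *Krt7* and *Krt23* in DSS + EA against control ranged from −0.38 to 0.0721 and from −0.63 to 0.24. The cause of these shifts was not tested. The other settings left the counts within 1.5 times, and the ratios moved by less than the spread between mice. With a replicate block, 1 keratin in place of 2 was lower in DSS against control. The numbers name different animals, and deviations of same-numbered mice correlated between −0.16 and 0.105, so they share only a number. Depth limits *Krt5*, *Krt13*, *Krt14* and *Krt15*, at 0 to 10 counts per library.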

Other observations

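Several keratins outside simple and squamous epithelium had few counts and were left out by the filter on low counts. *Krt90* gave 0, 0 and 2 counts in control mice, 3, 63 and 27 in the DSS mice and 7, 5 and 1 in the DSS + EA mice. In the fit without that filter its edgeR adjusted p was 0.0037 for DSS against control and 0.0485 for DSS + EA against DSS. *Krt83* had 1 count in each control mouse, 2, 22 and 4 in the DSS mice and 0, 1 and 0 in the DSS + EA mice, with edgeR adjusted p-values of 0.0441 and 0.0217 in the same comparisons. For both genes DSS mouse 2 was the highest and DSS mouse 1 the lowest of the DSS group, the reverse of the simple keratins for mouse 1. *Krt84* gave 3, 1 and 3 counts in control mice, 1, 9 and 20 in the DSS mice and 4, 6 and 4 in the DSS + EA mice, and *Krt87* had 11, 3 and 8, then 4, 10 and 2, then 12, 7 and 19. Neither was called in that fit.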
